A study of Mus musculus with 12 samples.

Results

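Astrocyte cultures of the senescence-accelerated mouse SAMP8 were compared with those of its senescence-resistant counterpart SAMR1 over both rat sera, and the question asked here was which transcripts separated the strains whatever serum the cells had received. All 12 of the 12 samples of the series entered, 6 of each strain. They formed 4 groups of 3: SAMR1-AL and SAMP8-AL, which received serum from rats with free access to food (ad libitum, AL), and SAMR1-CR and SAMP8-CR, which received serum from calorie-restricted rats (CR). All cultures were prepared from cerebral cortex of mice 2 days old and used after 21 days in vitro. The sera were heat inactivated and added at 10% of the medium for 48 h, so that no culture lacked rat serum. The submitters describe 3 biological replicates per condition, and neither the sex of the pups nor the number pooled per culture is given in the sources used here.

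Both lines are inbred strains that were propagated from litters of AKR/J stock selected for early senescence (P series) or normal aging (R series). The submitters add that the background of these lines came into doubt and that each SAM line is genetically distinct. The strain contrast therefore covers every inherited difference between the 2 lines and no AKR/J culture is among the 12. The cultures were enriched in astrocytes but also held microglia and a few oligodendroglia. Astrocytes supply neurons with metabolites, clear glutamate and maintain the barrier around blood vessels. Microglia are the resident macrophages of brain and carry Fc receptors, which bind the constant part of antibodies and pass the signal on through adaptor chains with tyrosine activation motifs.

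Expression was read on bead arrays of 24613 probes, and a probe was called detected when its detection p-value, set from negative control beads, was under 0.05. Between 41.25% and 46.73% of probes were detected per array. The test covered 10935 probes (8068 named genes), each detected throughout 1 or more of the 4 groups. Values below are normalized levels, that is, log2 units above or below the mean of the array, and differences are SAMP8 minus SAMR1 on this log2 scale with the standard error (SE). The lowest intensity of an array was 7.01 to 8.19 in the 8 samples whose labels begin with 01 to 08, and 40.1 to 42.9 in the 4 that begin with 09 to 12. The first set holds all 6 SAMR1 cultures and replicate 1 of SAMP8-AL and SAMP8-CR, and the second holds the other 4 SAMP8 cultures. Within SAMP8 the split thus also separates replicate 1 from the other replicates, and array set and culture cannot be told apart. No label names this split, so values from the first set alone, or the loss of a call with the set as a block, are given where the split changes a result. The first principal component, 39.8% of the variance, separated the strains: SAMR1 samples scored between -26.7 and -3.57, and SAMP8 samples between 12.8 and 19.7, with replicate 1 of both SAMP8 groups at 17.6 and 19.7. The astrocyte genes Gfap, Slc1a3, Gja1, Aqp4 and Glul were detected in all 12 arrays.

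The strains differed in 1721 probes, 15.7% of those tested, after Benjamini-Hochberg adjustment in limma. SAMP8 was higher for 1058 probes (9.68%) and lower for 663 (6.06%). When the arrays were only centred on their medians, which moved the median difference of all probes to 0.16, the calls were 975 higher and 288 lower. All 1721 differed in the same direction in the 2 sera, which a call on the average over both sera made likely beforehand. When each serum was taken alone, P8AL-R1AL called 1057 probes (9.67%) and P8CR-R1CR called 306 (2.8%), with 3 cultures against 3 in each. A difference was said to hold in both sera when the probe was called for strain and in each of these contrasts with the same sign. This was the case for 250 probes (2.29%), 125 higher and 125 lower in SAMP8. They represent 181 genes by the brightest probe of each gene, 2.24% of genes, with 89 higher and 92 lower, and 32 of the 250 probes carry no gene name. The median size of the difference was 0.92 for the probes that held, 0.49 for all those called and 0.15 for all those tested.

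The 6 values of one strain lay entirely outside the 6 of the other for 775 probes (7.09%), among them 241 of the 250. With the array set added to the model as a block, 917 probes were called (8.39%), 471 higher and 446 lower, and all 250 remained called for strain. In that fit 261 probes held in both sera, and only 170 of them were among the 250. Within the first set, 2 SAMP8 cultures against 6 SAMR1 cultures, 485 probes were called (4.44%), the 250 all kept their sign and 222 were called. The second set holds no SAMR1 culture, so the block fit also rests its strain difference on these 2 SAMP8 cultures. The difference was the same in both fits (Fcer1g 3.43, Gdpd5 -2.54), so they are not separate checks. The number that held fell to 163, 157 and 164 when SAMR1-CR replicate 2, SAMP8-CR replicate 1 or SAMP8-CR replicate 2 was left out, although all 250 stayed called for strain over both sera in each of these fits.

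The largest difference was in Fcer1g, the gamma chain shared by activating Fc receptors and the high-affinity IgE receptor. Its probe was read as follows (first 30 of 50 bases, 5′ to 3′), shown because no other named gene differed as much.
Fcer1g: gaacagacgtgcttggctgcattcttttcc
The level was -1.02 at the lowest, -0.91 at the median and -0.78 at the highest in SAMR1, where it was detected in 0 of 6 arrays. In SAMP8 it was 2.00, 2.94 and 3.52, detected in 6 of 6. SAMP8 was thus at least 10.2-fold higher, counted against the lowest detected signal of the SAMR1 arrays, and the groups were far apart (difference 3.76 ± 0.17 SE, adjusted p = 2.95e-09, limma). The lowest SAMP8 value belonged to SAMP8-AL replicate 1. Fcer1g rests on a single kept probe, so a difference in the transcript and one in signal at that probe cannot be told apart.

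The Fc receptor genes themselves moved in the other direction, including Fcgr3 and Fcgr4, whose products signal through this chain. Fcgr3, the low-affinity receptor III for IgG, was 2.79, 3.49 and 4.01 (lowest, median, highest) in SAMR1 against 0.59, 1.54 and 1.80 in SAMP8. Fcgr4 was 1.25, 1.90 and 2.33 against -0.34, 0.20 and 0.63, and the inhibitory receptor Fcgr2b 0.94, 1.38 and 1.85 against -0.34, 0.07 and 0.22. In none of these did the strains overlap, and all 3 held in both sera (differences -2.01 ± 0.23, -1.65 ± 0.19 and -1.36 ± 0.12). Of the 12 measured Fc receptors and signalling partners, 1 was called higher, which was Fcer1g, and 8 lower, among them the adaptor Tyrobp (-1.14), the kinase Btk (-0.82), the exchange factor Vav1 (-0.76) and the phosphatase Inpp5d (-0.72). The median of the list was -0.74, beside 0.03 over all 8068 genes. Fcgr2b, Fcgr3 and Fcgr4 are close relatives, as are Slco1a4 and Slco1a5, and Trim30a and Trim12a. So are Gstm2 and other glutathione transferases, and Gpr137b-ps and Gpr137b. In all these cases which copy a probe reads is not certain. The arrays measure whole cultures, in which fewer cells of a type and less RNA per cell cannot be told apart.

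Microglial transcripts were lower in SAMP8 in most but not all cases. Of 35 measured microglia and macrophage markers 21 were called lower and 1, again Fcer1g, higher, against 6.48% and 8.66% of all genes. The list median was -0.58 over 12 arrays and -0.90 within the first set. The log2 of the summed levels of the list ran from 7.70 to 9.01 in SAMR1 (median 8.54) and from 7.28 to 7.79 in SAMP8 (median 7.64), so that the strains overlapped slightly. Cd14, the co-receptor for bacterial lipopolysaccharide, was 3.29, 3.57 and 4.13 in SAMR1 and 1.06, 1.47 and 1.96 in SAMP8 (difference -2.16 ± 0.17, adjusted p = 5.58e-07, limma). Rgs1, a brake on G protein signalling in leukocytes, fell by 1.76, and the lectin receptor Clec4d and the glycoprotein Gpnmb by 1.73 and 1.67. The phagocytic receptor Trem2 fell by 1.24 and the complement genes C1qa and C1qb by 1.09 and 1.10. Other markers that define microglia were not called: Aif1 differed by 0.01 ± 0.17, Cx3cr1 by -0.39 ± 0.24 and Tmem119 by 0.21 ± 0.12. The study gives the same range of microglial content for established cultures of both strains. The microglial content of the cultures was not counted here, and its part in these values was not tested.

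Among the genes higher in SAMP8 several serve transport and metabolism. Slc25a18, a mitochondrial glutamate carrier, was 1.25, 1.61 and 2.42 in SAMR1 and 3.48, 4.11 and 4.67 in SAMP8. This rise of 2.33 ± 0.23 was the largest of a named gene after that of Fcer1g (adjusted p = 7.34e-06, limma). Slc4a4, the sodium bicarbonate cotransporter, went from -0.59, -0.37 and 0.32 to 0.84, 0.97 and 1.48, which left the strains apart. Slco1a4 and Slco1a5, neighbouring organic anion transporters on chromosome 6, rose by 1.88 ± 0.19 and 1.71 ± 0.10. Because these genes are close copies, the parts of their probes that were read are given (first 30 of 50 bases).
Slco1a4: agctatataatgacctgtgacaatttccca
Slco1a5: gcacattgcacttcctttgaatcatgagag
The whole probes share no run longer than 4 bases. They were compared with each other and not with the 2 transcripts, so which copy each probe reads is not settled by this. Slco1a4 was -0.56, -0.30 and 0.28 in SAMR1 and 1.23, 1.78 and 2.24 in SAMP8, and Slco1a5 was -0.30, -0.06 and 0.08 against 1.48, 1.62 and 1.79. Bdh2, a cytosolic hydroxybutyrate dehydrogenase, rose by 1.71 ± 0.18, and Inmt, which methylates indolamines, by 1.69 ± 0.27. Inmt was the most scattered of these, between 0.52 and 2.25 in SAMP8 against -0.59 to 0.08 in SAMR1.

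Regulators of growth and of the matrix were also among the largest rises. Ddit4l, an inhibitor of mTOR signalling, was 0.69, 0.90 and 1.01 in SAMR1 and 2.71, 2.98 and 3.23 in SAMP8 (difference 2.09 ± 0.10, adjusted p = 6.46e-09, limma). Reck, a membrane inhibitor of matrix metalloproteinases, was -0.18, 0.09 and 0.22 against 1.92, 2.04 and 2.19. The spread within a strain was small beside the step between strains for both genes. Glycam1, a mucin-like adhesion molecule, rose by 2.11 ± 0.21 and Gpr137b-ps, annotated as a pseudogene, by 2.05 ± 0.11. By quantitative PCR the study gave Gpr137b-ps as slightly higher in SAMP8 in AL serum and slightly lower in CR serum. Ddit4l, Reck and Glycam1 were higher there in both sera. Atxn1, the gene of the polyglutamine protein ataxin 1, was detected in 0 of 6 SAMR1 arrays and 6 of 6 SAMP8 arrays and was at least 3.24-fold higher. Atxn1 also rests on a single kept probe, with the same limit as Fcer1g. The ubiquitin ligase Marchf8 rose by 1.76 ± 0.09, the kinase Tesk1 by 1.58 ± 0.15, the dynactin subunit Dctn3 by 1.51 ± 0.11 and the clock output gene Dbp by 1.49 ± 0.19. In the plot of the named genes by sample the SAMP8 values of these lie above every SAMR1 value, as their choice required.

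Among the genes lower in SAMP8, Gdpd5 and Emb were not above background in any SAMP8 array. Gdpd5, a glycerophosphodiester phosphodiesterase, was 1.49, 1.90 and 2.05 in SAMR1 and -0.73, -0.65 and -0.57 in SAMP8, at least 5.31-fold lower. Emb, the cell surface glycoprotein embigin, was 0.97, 1.25 and 1.41 against -1.20, -1.06 and -0.82, at least 3.48-fold lower. Eef1a2, the elongation factor form of neurons and muscle, was likewise detected in 6 of 6 SAMR1 and 0 of 6 SAMP8 arrays, at least 2.67-fold lower. These 3 adjusted p-values were 9.70e-10, 9.70e-10 and 7.66e-07 (limma). Each of these genes rests on a single kept probe, so loss of the transcript and loss of signal at that probe cannot be told apart. By quantitative PCR the study gave Gdpd5 as only slightly lower in SAMP8 in both sera, and Emb as lower in AL serum only. Npy and Hspb1 were clearly lower there in both sera. Npy, the neuropeptide Y precursor, was 1.58, 2.01 and 2.46 in SAMR1 and -0.33, -0.002 and 0.43 in SAMP8. Ppp1r1a, an inhibitor of protein phosphatase 1, fell by 1.92 ± 0.13, and Hspb1, a small heat shock protein, by 1.90 ± 0.24. Erdr1, a gene at the pseudoautosomal end of the sex chromosomes, fell by 1.78 ± 0.14, Adssl1, the muscle form of adenylosuccinate synthase, by 1.69 ± 0.12, and Crym, which binds thyroid hormone, by 1.66 ± 0.17. No value of either strain crossed into the range of the other for these genes, as their choice required.

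**Figure D1:**
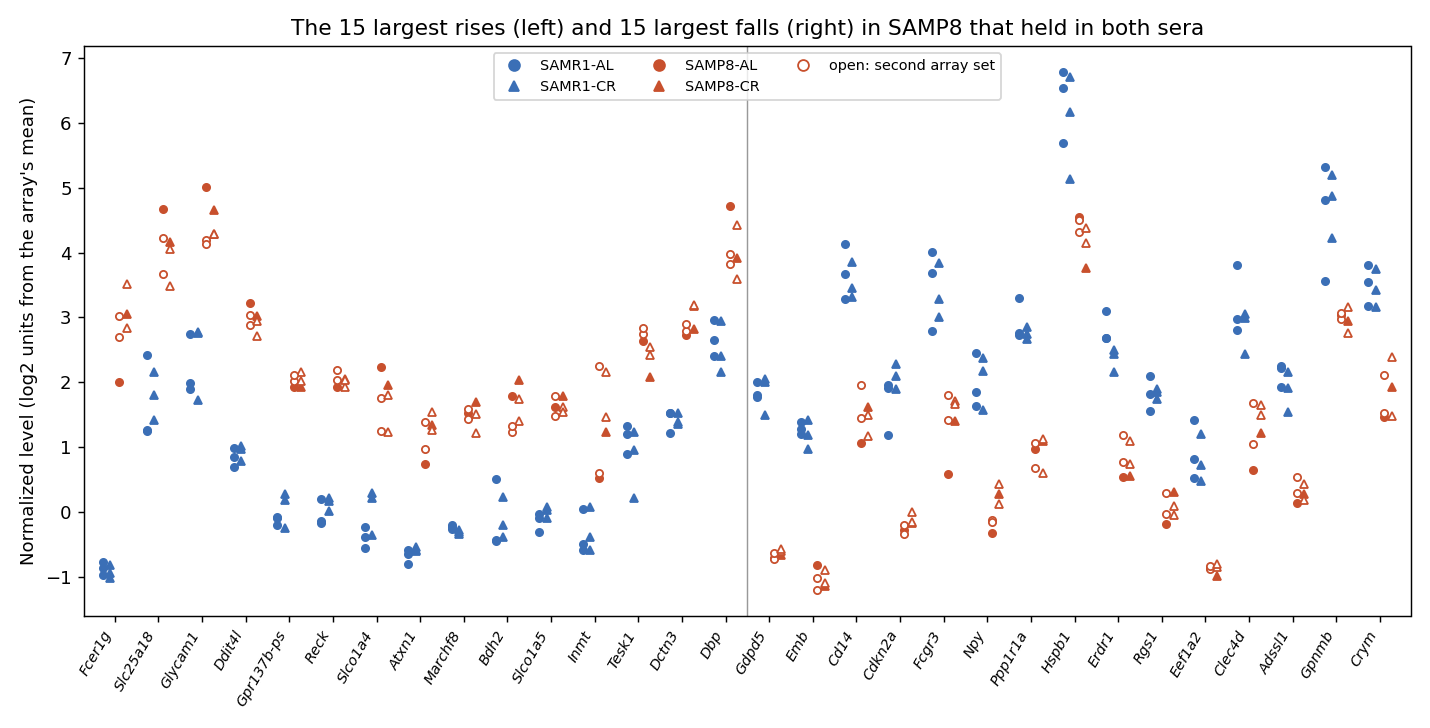
Normalized level (log2 units from the mean of the array) of the 15 largest rises and the 15 largest falls that held in both sera, with 1 point per culture, circles for AL and triangles for CR serum, blue for SAMR1 and red for SAMP8, open where the array belongs to the second set. In all 30 genes the 6 values of a strain lie on 1 side of those of the other, as the choice of these genes required. For some genes the filled SAMP8 points lie within the range of the open ones, as for Reck (1.93 and 2.04 against 1.92 to 2.19). For others both lie outside it, as for Glycam1 (5.01 and 4.66 against 4.14 to 4.29) and Erdr1 (0.53 and 0.55 against 0.73 to 1.18).

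The neighbouring cell cycle inhibitors Cdkn2a and Cdkn2b moved in opposite directions. Cdkn2a, which encodes p16 and p19ARF, was 1.19, 1.93 and 2.28 in SAMR1 and -0.34, -0.18 and -0.004 in SAMP8 (difference -2.08 ± 0.13, adjusted p = 5.97e-08, limma), and its further probe fell by 0.54 ± 0.08. Cdkn2b, which encodes p15, was 2.31, 2.77 and 3.19 against 3.47, 3.80 and 4.11 (difference 1.03 ± 0.14). The strains did not overlap in either gene. Glb1, the gene of the lysosomal beta-galactosidase, rose by 0.86 ± 0.11, from a range of 1.05 to 1.68 to one of 2.17 to 2.29. In the list of 22 cell cycle inhibitors and senescence markers 5 were called higher and 2 lower, with a median of 0.05. With the array set as a block 3 were called higher and 4 lower, and the first-set median was -0.06, so the balance of this list turned with the array set. Cdkn1a (0.28), Lmnb1 (-0.18) and Mmp3 (-0.62) were not called.

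Detection separated the strains completely for 43 probes. Of these 34 were detected in 6 of 6 SAMP8 and 0 of 6 SAMR1 arrays, and 9 the other way. They name 31 and 9 genes, and 20 and 7 of the probes held in both sera. Apart from those above, SAMP8 was at least 2.04-fold higher for Frmd4b, a scaffold of the cytohesin pathway, at least 1.97-fold for Sugct, a glutarate CoA-transferase of mitochondria, at least 1.62-fold by 1 of the probes of Vps52, a tethering subunit at the Golgi, and at least 1.54-fold for the mitochondrial ribosomal protein Mrpl35. SAMP8 was at least 1.90-fold lower by the further probe of Adam8, a membrane protease of leukocytes whose brightest probe was detected in 3 of 6 SAMP8 arrays, at least 1.63-fold lower for BC048403 and at least 1.29-fold lower for the ganglioside synthase St8sia1. The adhesion molecule Cdh6 was at least 1.25-fold lower. For the remaining probes of this kind the bound went down to 1.01-fold. Where a gene has a single kept probe, a difference in the transcript and one in signal at that probe cannot be told apart.

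Probes that held were chosen for being called with the same sign in each serum, so their sizes in the 2 sera are given as a description. The ratio of the difference in CR serum to that in AL serum had a median of 1.02 over the 250 probes and lay between 0.57 and 2.05. Fcer1g rose by 3.45 in AL and 4.06 in CR serum, Ddit4l by 2.21 and 1.97, and Cdkn2a fell by 1.95 and 2.20. Clec4d showed one of the wider gaps among the named genes, with falls of 2.08 and 1.37. The test of the difference between sera, the strain by serum interaction, called 0 probes (0%, limma, smallest adjusted p = 0.965), while 479 had an unadjusted p under 0.05, 5 of them among the 250. The genes with the smallest interaction p were Ski, Olig2, Cox17, Chaf1a and Gapvd1. Ski, a repressor of TGF-beta signalling, differed by 0.65 ± 0.12 in AL and -0.03 ± 0.12 in CR serum, and the oligodendrocyte lineage factor Olig2 by 0.89 ± 0.12 and 0.25 ± 0.12. For the copper chaperone Cox17 the values were -0.46 and 0.29, for the chromatin assembly subunit Chaf1a -0.44 and -0.01, and for Gapvd1, a regulator of endocytosis, 0.78 and 0.09. None of these 5 passed the adjustment.

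**Figure D2:**
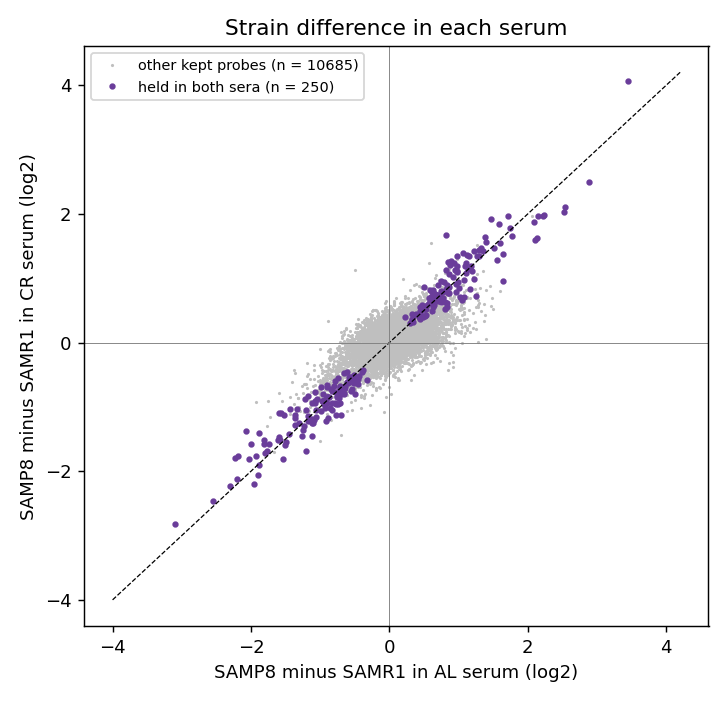
Strain difference (SAMP8 minus SAMR1, log2) in AL serum on the x axis and in CR serum on the y axis for the 10935 tested probes, grey, with the 250 that held in both sera in purple and the line of equality dashed. The purple points follow the line, with Fcer1g at the upper right (3.45 and 4.06).

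Of the 181 genes that held, 148 were measured by a single kept probe and 33 by more. The 36 further probes of these 33 genes differed in the same direction as the brightest in 34 cases, were called in that direction in 24 and held in 17. The difference was smaller than that of the brightest probe in 32. Parts of both probes are shown for 2 genes whose probes held (first 30 of 50 bases), to show that the 2 probes differ in sequence. They were not compared with the transcripts, so where each probe reads is not settled by this.
Gstm2, brightest probe: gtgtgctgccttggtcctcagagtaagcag
Gstm2, further probe: cgtccgcagactagcaaggcccgggttggt
Galt, brightest probe: tgactgtgaccacatcagggccttgaatct
Galt, further probe: agacacttctgctgccccggcggcacgtgc
The glutathione transferase Gstm2 rose by 1.47 ± 0.11 and 1.04 ± 0.12 by these probes, and Galt, which converts galactose phosphate, by 0.83 ± 0.12 and 0.86 ± 0.11. Erdr1 fell by 1.78 and 1.18, and Tgfbi, a matrix protein induced by TGF-beta, by 1.43 and 1.07. Some genes were not matched by their further probe. Ltbp1, which binds latent TGF-beta, fell by 1.03 by 1 probe and differed by -0.08 ± 0.06 by the other, and Smarcc1, a subunit of chromatin remodellers, rose by 1.14 and differed by 0.11 ± 0.08. Vps52 was called in opposite directions, 0.85 ± 0.08 and -0.55 ± 0.08, so no direction is given for this gene as a whole.

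**Figure D3:**
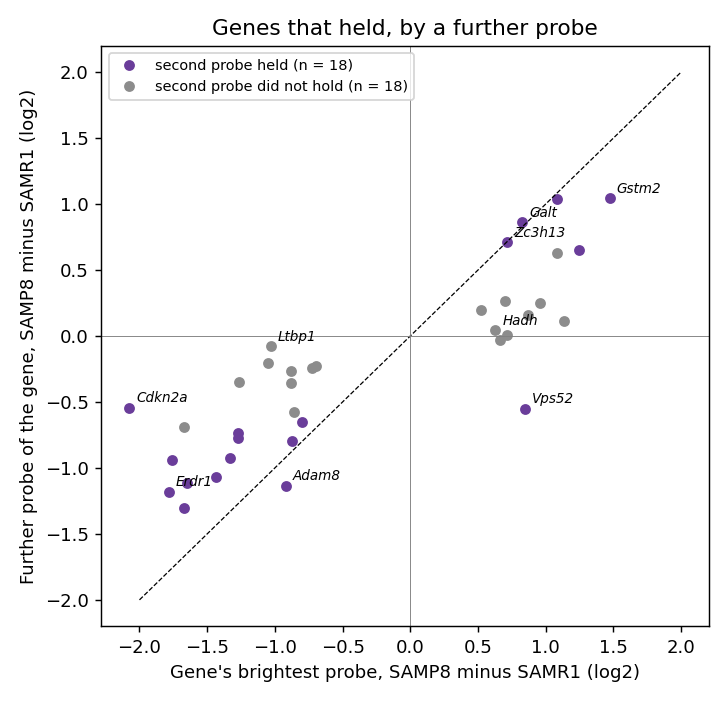
Strain difference (log2) by the brightest probe of a gene on the x axis and by each further probe on the y axis, for the 33 genes that held and have more than 1 kept probe; purple points are further probes that held and the dashed line is equality. Most points lie between the line and 0, and Vps52 lies at 0.85 and -0.55.

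Genes that held were often neighbours. When the 8064 placed genes were ordered along the chromosomes of the GRCm38.p6 annotation, which served here only for order because the files name no build, 181 (2.24%) held. A total of 19 pairs lay directly side by side among tested genes, and 13 of these pairs moved the same way. There were 10 stretches with 3 or more such genes and at most 5 other tested genes between one and the next. They held 35 of the 181, among 68 tested genes. Chromosome 6 had the largest share of genes that held (23 of 414, 5.56%), followed by chromosome 13 (15 of 298, 5.03%), while chromosome 8 had the smallest among autosomes (3 of 451, 0.67%).

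The stretch with the most members runs on chromosome 1 from Uap1, an enzyme of hexosamine synthesis, through Fcgr2b, Fcgr4 and Fcgr3 to Fcer1g. Uap1 was 0.62, 0.72 and 0.79 in SAMR1 and 1.70, 1.86 and 2.10 in SAMP8, so that a rise of 1.15 ± 0.09 and one of 3.76 flank 3 falls. Apoa2, a lipoprotein gene also located there, was detected in 0 of 6 SAMR1 and 5 of 6 SAMP8 arrays and was called higher (0.38 ± 0.07), and Sdhc, a subunit of respiratory complex II, was not called (-0.22 ± 0.12). On chromosome 13 all 4 genes that held between Ero1b and Rala rose: Ero1b, an oxidase of the endoplasmic reticulum, by 0.59, Gpr137b-ps by 2.05, Sugct by 1.23 and the small GTPase Rala by 0.73. Nid1, a basement membrane protein in the same stretch, differed by 1.39 over 12 arrays and by 0.38 within the first set. On chromosome 4 the adjacent tested genes Rpp25l, Dctn3 and Galt all rose, by 1.04, 1.51 and 0.83. On chromosome 6 the neighbours Vgll4, Syn2 and Timp4 rose by 1.24, 0.44 and 1.30. Ero1b, Syn2 and Apoa2 were not detected in any SAMR1 array and were at least 1.27-fold, 1.02-fold and 1.05-fold higher.

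Other stretches held both directions. Between Mrpl35 and Capg on chromosome 6, Mrpl35 rose by 1.08 while the splicing factor Usp39, the carboxylase Ggcx and the actin capping protein Capg fell by 0.88, 0.98 and 1.55. Between Grip1 and BC048403 on chromosome 10, Grip1 rose by 0.41, and Irak3, an inhibitor of Toll-like receptor signalling, Rassf3 and BC048403 fell by 0.61, 1.55 and 0.88. On chromosome 15 Nckap1l and Ppp1r1a fell by 1.20 and 1.92 and Glycam1 rose by 2.11. On chromosome 17 Yipf4 rose by 0.47 beside falls of 0.86 in Ttc27 and 1.03 in Ltbp1. On chromosome 6 the RNA editing enzyme Apobec1 fell by 1.15 and the lectin receptors Clec4a3 and Clec4d by 0.57 and 1.73. The stretch from Slco1a4 ends in St8sia1, which fell by 0.51. Grip1 and Yipf4 were not detected in any SAMR1 array and were at least 1.18-fold and 1.12-fold higher.

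**Figure D4:**
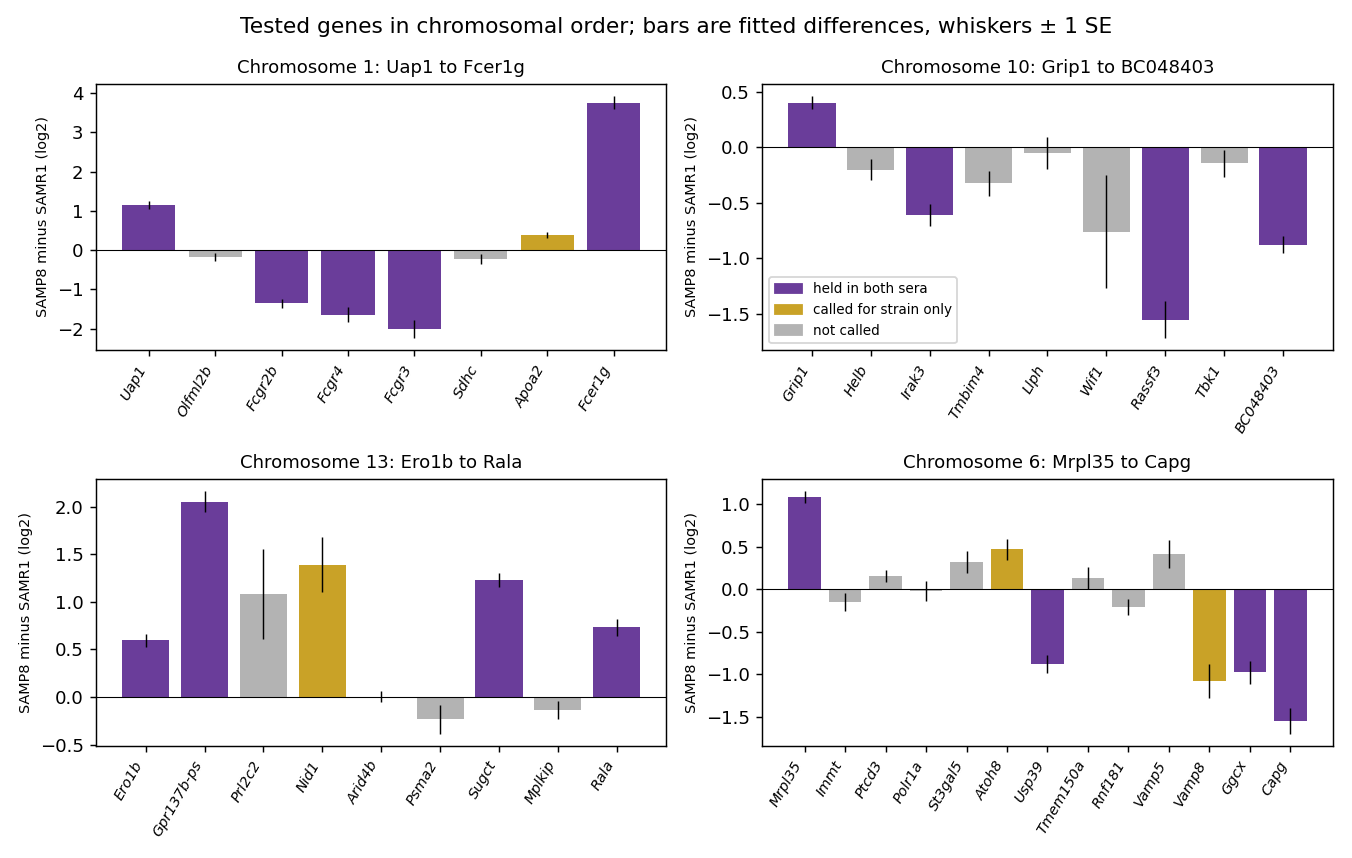
Strain difference (SAMP8 minus SAMR1, log2, whiskers ± 1 SE) of the tested genes in chromosomal order in the 4 stretches with most genes that held; purple bars held in both sera, yellow bars were called for strain only and grey bars were not called. On chromosome 1 the 3 Fc receptor genes fall between the rises of Uap1 (1.15) and Fcer1g (3.76), and on chromosome 13 every purple bar is above 0.

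Genes of named cell types and processes were examined as 32 lists, with a background of 15.1% of all genes called and 2.24% that held. With the array set as a block the calls of Ntsr2, Aqp4, Cnp, Syt1, Otx2, Egfr, Rpl36a, Neu1, Gclm, Igfbp4, Eif4ebp1, Deptor, Hspa5, Hspd1, Igf1r, Ide, Col1a2, Igf2 and Nid1 given here or above were lost (limma, adjusted p from 0.0559 for Neu1 to 0.874 for Igf2), with the sign of each kept. Several counts moved when 1 culture was left out, and those that did so by more than 1.5 times are given with that culture. Of 22 astrocyte markers 5 were called higher and 1 lower, with a median of 0.18. Slc25a18, Slc4a4, Glul (0.78), Aldoc (0.86) and the water channel Aqp4 (0.77) were the higher ones, Ntsr2 was lower (-0.64), and Gfap (-0.22 ± 0.30) and Slc1a3 (0.12 ± 0.19) were not called. Within the first set Aqp4 differed by 0.74. The number of higher astrocyte markers was 3 without SAMR1-CR replicate 2 or SAMR1-AL replicate 3. Of 7 oligodendrocyte lineage markers 2 were called higher, Olig2 (0.57) and Cnp (0.48), and Mal lower (-0.26). Of 9 neuron markers 2 were called higher, Reln (0.45) and Syt1 (0.33). Among 7 endothelial markers 1 was called, Slco1a4, and Eng (0.30), Cdh5 (0.33) and Flt1 (0.16) were not. Of 11 radial glia markers 1 was called higher, Egfr (0.33), of 6 pericyte and smooth muscle markers 0 by limma (2 with an unadjusted p under 0.05), with 0.40 for Tagln, and of 1 measured sex-linked gene 0 (unadjusted 1). These shorter lists moved by at most 1 gene in either direction with a culture left out. Ttr, the transthyretin of choroid plexus, was 1.22, 2.12 and 3.08 in SAMR1 and -0.47, 0.58 and 0.89 in SAMP8 (difference -1.69 ± 0.31), and the other call among 7 ependymal and choroid plexus markers was Otx2 (0.45).

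Fibroblast and matrix genes moved with the array set, that is, between SAMP8 replicate 1 and the other SAMP8 replicates. Of 20 fibroblast and meningeal markers 6 were called higher, with a median of 0.43, but the median was 0.03 within the first set, and with the set as a block 1 was called higher and 4 lower. The growth factor Igf2 was 0.04, 0.30 and 2.04 in SAMR1 and 0.79, 3.50 and 3.98 in SAMP8. The strains overlapped, and the difference of 2.01 ± 0.56 was 0.16 within the first set. Of 18 collagens 2 were called higher over 12 arrays, with a median of 0.36, whereas the first-set median was -0.02 and with the block 0 were called higher and 5 lower (limma). Of 18 basement membrane genes 4 were called higher, with a median of 0.35, and the first-set median was 0.10, with 1 called higher and 0 lower under the block. Col1a2 differed by 0.72 over 12 arrays and 0.16 in the first set, while dystroglycan, Dag1, differed by 0.97 and 1.06. Without SAMR1-CR replicate 1 the number of collagens called higher was 6, and it was 4 without replicate 1 of SAMP8-AL or SAMP8-CR. The number of basement membrane genes was 2 without SAMR1-CR replicate 2, SAMR1-AL replicate 3 or SAMP8-AL replicate 2 or 3. Of 16 insulin and IGF signalling genes 3 were called higher, Igf1r (0.39), Igfbp4 (0.91) and Igf2, and with the block 0 by limma. In these values the array set cannot be told apart from a difference between SAMP8 replicate 1 and the other SAMP8 cultures.

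Genes of cell division were lower in SAMP8. Of 18 measured mitosis genes 15 were called lower and 0 higher, with a median of -0.72 over 12 arrays and -0.80 within the first set, and 10 were called with the set as a block. Prc1, a bundler of spindle microtubules, was 0.75, 2.01 and 2.56 in SAMR1 and 0.57, 0.65 and 0.84 in SAMP8, and the centromere histone Cenpa fell by 1.22 ± 0.24. Nusap1 (-0.99 ± 0.15) and the kinesin Kif2c (-0.69 ± 0.10) held in both sera. Kif2c was not detected in any SAMP8 array and was at least 1.39-fold lower. SAMR1 cultures were the more scattered, and the lowest of them came within the SAMP8 range for Prc1. Of 29 DNA replication genes 11 were called lower, among them the licensing factor Cdt1 (-0.72) and the polymerase Pole (-0.48). Pole was not detected in any SAMP8 array and was at least 1.18-fold lower. With the set as a block 5 of the 29 were called lower. The count over both sets was between 7 and 18 with 1 culture left out, 18 without SAMR1-CR replicate 3 and 7 without SAMR1-CR replicate 2, SAMR1-AL replicate 3 or SAMP8-AL replicate 2.

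Few ribosomal protein genes were called, and of the respiratory chain none passed the test over 12 arrays. Before adjustment 2403 of all 8068 genes had a p under 0.05 (limma), as did 24 of 46 cytosolic ribosomal protein genes. Of 46 cytosolic ribosomal protein genes 5 were called lower, among them Rpl32 (-0.93 ± 0.22) and Rpl36a (-0.82), with a median of -0.38 that was -0.03 when arrays were centred on their medians without rescaling. The count was 22 without SAMR1-CR replicate 3, 9 and 8 without SAMR1-AL and SAMR1-CR replicate 1, 2 or 3 without SAMR1-AL replicate 2 or 3, SAMR1-CR replicate 2, SAMP8-AL replicate 1, 2 or 3 or SAMP8-CR replicate 1 or 3, and 1 once the set was modelled as a block. Of 67 mitochondrial ribosomal protein genes 3 were called higher, led by Mrpl35, and 4 lower (median -0.09), the latter between 0 (without SAMR1-CR replicate 2, SAMR1-AL replicate 3 or SAMP8-AL replicate 2 or 3) and 7 (without SAMR1-CR replicate 1 or 3). With the set as a block 1 was called higher and 0 lower. Of 29 complex I genes, 20 genes of complexes II to IV and 13 ATP synthase genes 0 were called by limma, against 2, 1 and 2 with an unadjusted p under 0.05. Their medians were -0.07, -0.12 and -0.16, and centring on the median alone turned these to 0.21, 0.23 and 0.13, where the median of all genes was 0.16. Without SAMR1-CR replicate 3, 2 complex I genes and 1 ATP synthase gene were called lower. Of 23 antioxidant enzymes 1 was called, the extracellular superoxide dismutase Sod3 (-0.72 ± 0.15). Of 24 glutathione genes 3 were called higher, Gstm2, Gclm (0.41) and Mgst1 (0.57), and 5 without SAMR1-AL replicate 1.

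Further immune and stress lists were mixed. Of 16 antigen presentation genes 2 were called higher and 4 lower (2 of each when the array set was a block), with H2-DMb1 at -0.88 ± 0.07, H2-K1 at -0.95 and H2-D1 at 0.41. H2-D1 was not detected in any SAMR1 array and was at least 1.07-fold higher. The class I genes have near-identical copies and vary between strains, so the gene behind these probes is uncertain. Of 20 interferon response genes 4 were called higher and 1 lower (3 lower without SAMR1-CR replicate 3), with Trim30a at 1.18 ± 0.09 and Irgm1 at 0.59. Of 11 complement genes 5 were called lower, C1qa, C1qb, C1qc (-0.95) and C3ar1 (-0.60) among them. Of 32 lysosome genes 3 were called higher and 5 lower (8 lower without SAMR1-AL replicate 1, and 1 higher and 5 lower with the set as a block), with Glb1 and Neu1 (0.62) up and Ctsh (-0.79) and Galc (-0.72) down. Of 20 metalloproteinases and inhibitors the inhibitors Reck and Timp4 (1.30 ± 0.20) were called higher, while the protease Mmp12 (-1.53 ± 0.24) and the inhibitor Timp1 (-1.18 ± 0.27) were among 3 called lower. Without SAMR1-AL replicate 1 the lower ones were 5, and without SAMP8-CR replicate 1 the higher ones were 4. Of 16 brakes on mTOR and stress sensors 4 were called higher, Ddit4l, Eif4ebp2 (0.70), Eif4ebp1 (0.66) and Sesn3 (0.51), and Deptor (-0.18) lower. Of 15 small heat shock proteins and chaperones 4 were called lower, Hspb1, Cryab (-0.77), Hspa5 (-0.47) and Hspd1 (-0.38), and 2 with the block.

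The last list held genes known to vary by inheritance among inbred mouse strains. Of 13 measured 4 were called higher and 3 lower, and 5 held in both sera: Trim30a, Trim12a (0.65 ± 0.07), Erdr1, Fcgr2b and Fcgr3. Trim30a was -0.55, -0.39 and -0.26 in SAMR1 and 0.57, 0.78 and 0.96 in SAMP8, with no overlap, and Trim12a, a neighbour of the same family, was -0.92, -0.82 and -0.47 against -0.24, -0.07 and 0.10. Apoa2 and the insulin-degrading enzyme Ide (0.42 ± 0.11) were called higher, and Glo1 (-0.05) and Alad (-0.20) were not called.

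**Figure D5:**
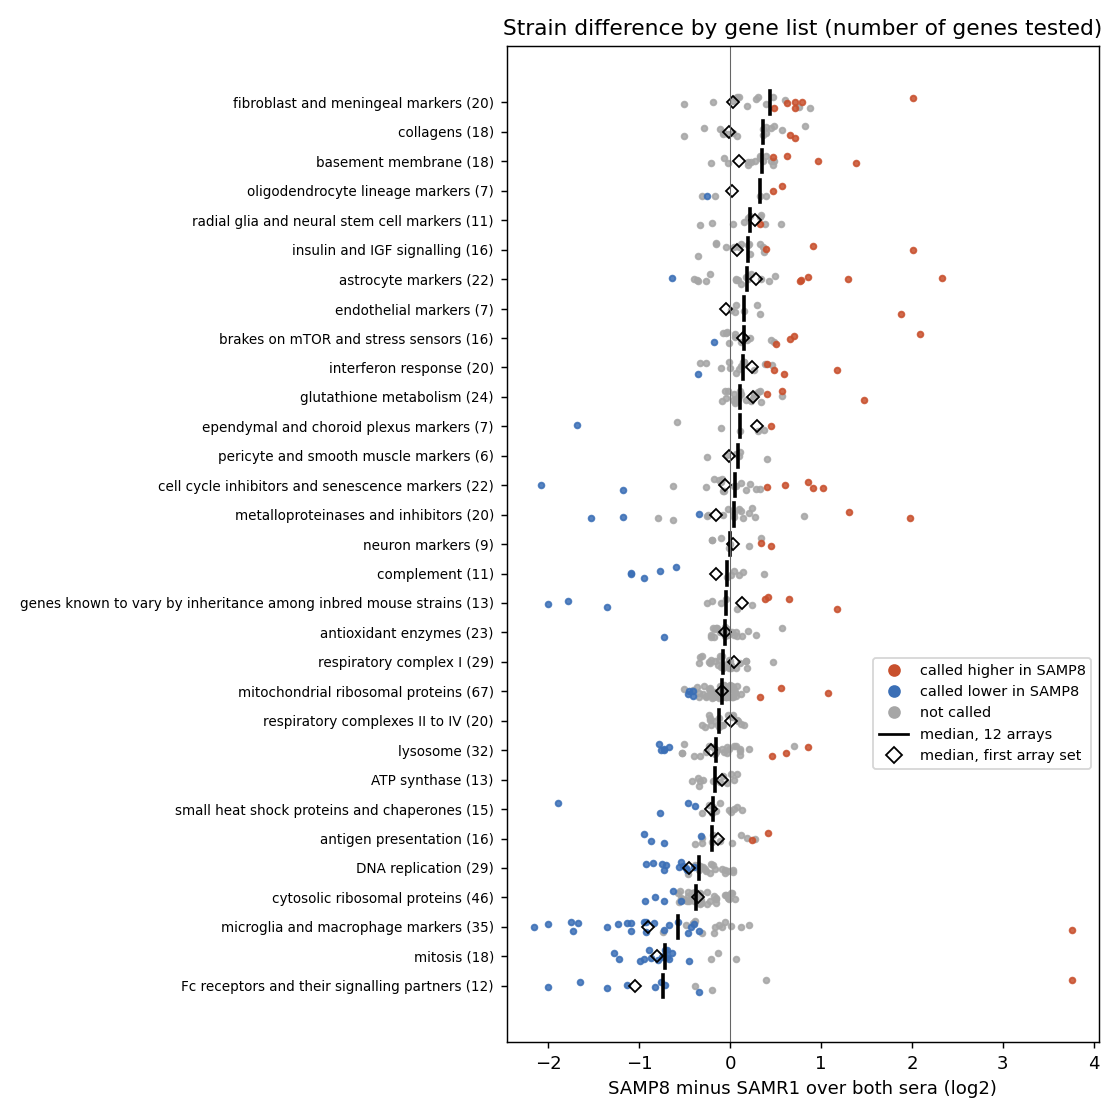
Strain difference (SAMP8 minus SAMR1, log2) of each measured gene in the 31 lists with more than 1 tested gene, sorted by median; red and blue points were called higher and lower, bars are medians over 12 arrays and diamonds medians within the first array set. Fc receptor, mitosis and microglia lists lie lowest (-0.74, -0.72 and -0.58), and the diamonds of the fibroblast and collagen lists fall near 0 (0.03 and -0.02).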

How the data were processed

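RNA of 12 cultures was hybridised to Illumina MouseRef-8 bead arrays by the authors, who deposited a summary intensity and a detection p-value for each of 24613 probes per array, not normalized. The deposited series table holds the Z scores of the authors (log-transformed intensities set to mean 0 and SD 1 within each array), and served as an alternative. Intensities were log2 transformed, Z-normalized per array and rescaled by the average of the 12 SDs (1.42), which puts values in log2 units from the array mean. A probe was kept if all arrays of any 1 group had a detection p-value under 0.05. limma 3.58.1 (R 4.3.3) fitted strain plus serum with a mean-variance trend, and the 4 group means for the contrasts within a serum and the interaction, with Benjamini-Hochberg adjustment over all kept probes at 0.05. The scripts were tested on simulated data. Bead arrays give no counts, so the number of arrays limits the precision, and p-values measure the spread between these cultures.

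A gene was represented by its kept probe of highest mean log2 intensity. Of all probes 20984 carry 1 gene, 1 several and 3628 none in the platform annotation used here. Genes named for the strain effect were the 15 largest rises and 15 largest falls that held in both sera without overlap, up to 4 members of each list by p, and the 5 smallest interaction p-values. Genes of stretches, further probes and other list members were named after their values were seen. The comparison, its members and the 32 lists were chosen with earlier results of these data known. Where a strain was not above background in any array, a fold is a bound against the lowest detected signal of each array. Log2 differences of such genes are fitted values that include signal below the detection limit. Probe sequences were read from the probe listing given with the study, and chromosomal order from the RefSeq annotation of GRCm38.p6.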

Additional observations from a re-analysis of the deposited data

Results flagged for a closer look

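Among the 60 sets of 6 values behind the 30 named genes, 4 held a culture far from the other 5, where chance flags about 1 set in 20. In SAMR1, Atxn1 was -0.81 in SAMR1-AL replicate 1 against -0.64 to -0.54 in the others, all below the detection limit. Cdkn2a was 1.186 in SAMR1-AL replicate 2 against 1.90 to 2.28. Ppp1r1a was 3.304 in SAMR1-AL replicate 1 against 2.67 to 2.85. In SAMP8, Fcgr3 was 0.589 in SAMP8-AL replicate 1 against 1.41 to 1.80, and this culture also had the lowest Fcer1g level of its strain. Each of these genes remained called in limma with that culture left out.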

How the results depend on the processing

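All 30 named genes kept their direction and their call in each of the 26 alternatives that measured them (773 values, highest adjusted p = 0.0411, limma), and 23 of them were measured in every one. The 30 were chosen from the same arrays for large differences that held without overlap, so this was likely beforehand. The Z scores of the authors gave the same 1721 calls as the main fit and are not a separate check. Of the 83 called genes named from lists, 29 were called in each of the 24 alternatives examined for them. The alternatives that changed the detection filter were not among these. With the array set in the model 56 were called, and Fbln1 turned its sign there (0.63 to -0.07). The counts were less stable. Median centring gave 288 lower probes and 152 that held. Keeping only probes detected in all 12 arrays left 155 that held. With AL and CR of a replicate averaged, 964 probes were called, 560 higher and 404 lower, and no serum could be tested alone. With the array set as a block 917 were called and 471 were higher, and 261 held, 170 of them among the 250. Within the first set 485 were called, 245 higher and 240 lower, and 47 held. The methods' Z ratio with ANOVA, without adjustment, let 812 probes hold. With 1 culture left out, 1228 to 2164 probes were called, 732 to 1297 higher and 496 to 867 lower, and 157 to 286 held. Replicate numbers were not taken to pair the cultures across strains, where same-numbered cultures correlated at -0.25 to 0.38. Within a strain the same-numbered AL and CR cultures all correlated above 0 (0.09 to 0.57), and 9 of 12 cultures correlated best with their own number there (8 of 12 over both strains), so the 6 cultures of a strain may not be independent. With strain and number together as a random block (correlation 0.159), 1293 probes were called, 783 higher and 510 lower, all among the 1721, and 265 held. A replicate block gave 1983 called and 381 that held, with all 250 among them. The z test of the methods was not run, as its form is not given in the sources used here. Signal close to background limits the genes not detected in 1 strain, whose folds are bounds, and a probe without signal does not show that its transcript was absent.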
